A study of Mus musculus with 24 samples.

Results

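The expression of 49 genes of DNA replication and cell division was followed in mouse pleural fluid cells and pleural tumor cells under 4 intrapleural treatments. The genes were taken by symbol from a table of 54505 genes, and all 49 were present. They were split into 23 S-phase genes and 26 mitotic genes. The S-phase genes act in origin licensing, DNA synthesis, nucleotide supply and the entry into S phase. Most of the mitotic genes act from the entry into mitosis to cytokinesis.

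A cell that commits to division first releases E2F transcription factors, which raise the genes of the replication machinery. The MCM helicase is then loaded at origins by ORC, Cdc6 and Cdt1, and it is activated together with the GINS complex as synthesis begins. Later, CDK1 with its B cyclins drives mitosis, the spindle checkpoint holds chromosome separation until kinetochores are attached, and the anaphase-promoting complex then destroys the cyclins. Transcripts of both sets are low in resting cells, so in a mixed sample they are commonly read as a sign of cycling cells, of whatever type.

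The samples came from C57BL/6 mice with LLC malignant pleural effusion, in which Lewis lung carcinoma cells, a mouse lung tumor line, grow in the pleural cavity and fluid gathers there. On day 11 the mice received LNP-CDN together with anti-PD-L1 (the combination), LNP-CDN alone, anti-PD-L1 alone or PBS, all by the intrapleural route. LNP-CDN is the study's nanoparticle carrying cGAMP, a cyclic dinucleotide that activates the innate sensor STING, and was given at 1 µg; anti-PD-L1 is an antibody that blocks the checkpoint ligand PD-L1 and was given at 30 µg. On day 13 the fluid cells and the pleural tumors were collected, red cells were lysed, and poly-A RNA was sequenced from 3 libraries in each of the 8 groups.

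Neither preparation was sorted, so each library holds the RNA of tumor cells and host cells together. In such bulk RNA a smaller number of cycling cells and less of these transcripts per cell cannot be told apart. The labels do not give the sex of the mice, nor do they tie a fluid library to the tumor of the same mouse. All levels below are the deposited FPKM, reads scaled by gene length and by library, where the scaling between libraries follows median-of-ratios size factors. Changes are differences in log2(FPKM + 1) with their standard error, which understate the change of genes near 1 FPKM. A gene is said to rise or fall where its Benjamini-Hochberg adjusted p from limma, over all genes tested, was under 0.05. Counts of signs, and of members with an unadjusted p under 0.05, are given without a share over all genes and are not calls.

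Reads recovered from the table came to 14580156 to 26850861 per library, and among the members the lowest read count in any library was 42, for Ttk, and the highest 22891, for Top2a. The fluid libraries carried leukocyte RNA, with a summed level of 5 leukocyte genes of 618 to 1224 FPKM, against 62.0 to 98.1 FPKM in tumors. A list of 5 epithelial and carcinoma genes summed to 189 to 262 FPKM in tumors and to 29.5 to 79.2 FPKM in fluid, almost all of it from Krt8 and Krt18. Of the epithelial markers, Epcam was at 0 in at least 1 tumor library of the combination and of PBS, and Cdh1 was at most 0.510 FPKM in tumors. The Y-linked gene Ddx3y ranged over 21.6 to 23.6 FPKM in fluid under anti-PD-L1 and reached at most 0.0283 FPKM in the rest of the fluid libraries, so mouse sex and anti-PD-L1 treatment cannot be told apart in fluid. In tumors Ddx3y stood at 3.27 to 3.44 FPKM under anti-PD-L1 and at 3.55 FPKM in 1 of the PBS libraries. Mouse sex thus also enters the tumor comparisons that use the anti-PD-L1 or PBS libraries, and its part was not tested.

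The start regions of 5 members are shown because the share of windows holding certain letters was not alike in the 2 sets, a feature that the choice of genes did not use. RefSeq start windows, of 250 bases before to 50 after a gene's start on GRCm38.p6, were matched by symbol for 39 of the 49 members. Capitals mark the E2F motif (TTTGGCGC, TTTCCCGC, TTTCGCGC or TTTGCCGC), the CCAAT box (CCAAT) and the cell cycle homology region, CHR (TTTGAA or TTCGAA), each searched on both strands. Mcm5, a subunit of the replicative helicase, is at chr8:75109259-75109558 on the plus strand. Mcm6, of the same helicase, is at chr1:128359656-128359955 on the minus strand. Cdk1, the kinase that drives mitosis, is at chr10:69352863-69353162 on the minus strand. Ccnb2, a B cyclin that partners it, is at chr9:70421505-70421804 on the minus strand. Top2a, the topoisomerase that untangles sister chromatids, is at chr11:99024140-99024439 on the minus strand.
Mcm5: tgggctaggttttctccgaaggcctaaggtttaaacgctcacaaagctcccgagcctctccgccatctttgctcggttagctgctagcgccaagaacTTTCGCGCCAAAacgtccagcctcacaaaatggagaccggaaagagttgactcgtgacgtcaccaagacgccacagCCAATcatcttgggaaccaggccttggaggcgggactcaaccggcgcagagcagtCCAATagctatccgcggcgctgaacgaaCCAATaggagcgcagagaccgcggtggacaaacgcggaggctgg
Mcm6: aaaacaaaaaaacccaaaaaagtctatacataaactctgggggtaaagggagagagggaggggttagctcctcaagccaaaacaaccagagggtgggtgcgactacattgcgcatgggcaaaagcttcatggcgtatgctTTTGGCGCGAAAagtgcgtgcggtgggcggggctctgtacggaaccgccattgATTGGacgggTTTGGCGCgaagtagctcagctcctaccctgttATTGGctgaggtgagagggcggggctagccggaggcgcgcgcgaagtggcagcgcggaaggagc
Cdk1: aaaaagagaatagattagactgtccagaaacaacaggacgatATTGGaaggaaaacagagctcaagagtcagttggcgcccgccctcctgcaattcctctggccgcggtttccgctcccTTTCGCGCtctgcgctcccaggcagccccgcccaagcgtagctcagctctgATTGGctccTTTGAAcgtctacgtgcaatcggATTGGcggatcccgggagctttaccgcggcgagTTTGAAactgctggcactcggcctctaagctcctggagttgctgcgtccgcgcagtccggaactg
Ccnb2: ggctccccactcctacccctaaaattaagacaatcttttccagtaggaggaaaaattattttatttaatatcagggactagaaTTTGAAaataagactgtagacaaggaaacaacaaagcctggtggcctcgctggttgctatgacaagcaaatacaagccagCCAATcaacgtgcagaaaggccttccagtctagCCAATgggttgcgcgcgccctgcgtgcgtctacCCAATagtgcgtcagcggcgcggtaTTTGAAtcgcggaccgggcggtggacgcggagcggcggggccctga
Top2a: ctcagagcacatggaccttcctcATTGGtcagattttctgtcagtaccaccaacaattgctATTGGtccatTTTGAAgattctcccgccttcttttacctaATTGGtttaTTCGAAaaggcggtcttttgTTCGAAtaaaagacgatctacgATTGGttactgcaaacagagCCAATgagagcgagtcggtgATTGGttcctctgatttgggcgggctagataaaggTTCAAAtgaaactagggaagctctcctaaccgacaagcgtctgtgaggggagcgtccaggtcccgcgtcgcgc

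In the Mcm5 window the E2F letters run over both strands as 1 overlapping pair, and in the Mcm6 window such a pair is followed by a further match. The Cdk1 window holds both kinds of letters, an E2F match upstream and a CHR on either side of a CCAAT box near the start. The Ccnb2 and Top2a windows hold repeated CCAAT boxes and CHR letters and no E2F letters. Over all start windows kept, the E2F letters were in 8 of 20 S-phase windows (40.0%) and in 1 of 21 mitotic windows (4.76%). They were in 2.26% of the 32851 windows kept for all genes. The CHR letters were in 15 of 21 mitotic windows (71.4%), in 4 of 20 S-phase windows (20.0%) and in 19.2% of all windows. The CCAAT box was in 17 mitotic windows (81.0%), in 15 S-phase windows (75.0%) and in 37.4% of all windows. In 1 member window, matches of different motifs overlapped. These shares describe letters only; binding was not measured.

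Levels set the tissues apart before any treatment is considered. Averaged over the members as log2(FPKM + 1), the mitotic set stood at 4.61 ± 0.03 in combination tumors, 4.69 ± 0.12 in LNP-CDN tumors, 4.59 ± 0.10 in anti-PD-L1 tumors and 4.57 ± 0.09 in PBS tumors (SD, n = 3 each). In fluid the mitotic average was 2.23 ± 0.15 under the combination, 2.48 ± 0.23 under LNP-CDN, 3.49 ± 0.29 under anti-PD-L1 and 2.98 ± 0.11 under PBS. The S-phase average in fluid was 2.60 ± 0.10 under the combination, 2.76 ± 0.13 under LNP-CDN, 3.53 ± 0.10 under anti-PD-L1 and 3.00 ± 0.04 under PBS, and in tumors it lay between 3.99 and 4.19 in the 4 groups. The mitotic average was above the S-phase average in every tumor library, by 0.451 to 0.643. In fluid under the combination it was below it in every library, by 0.334 to 0.450, and likewise under LNP-CDN, by 0.168 to 0.402. The difference lay between -0.229 and 0.144 in the anti-PD-L1 libraries and between -0.0952 and 0.0583 in the PBS libraries. The 49 genes took 0.100 to 0.124% of the reads in fluid under the combination, 0.105 to 0.141% under LNP-CDN, 0.221 to 0.345% under anti-PD-L1 and 0.170 to 0.190% under PBS, and 0.623 to 0.771% in tumors.

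**Figure D1:**
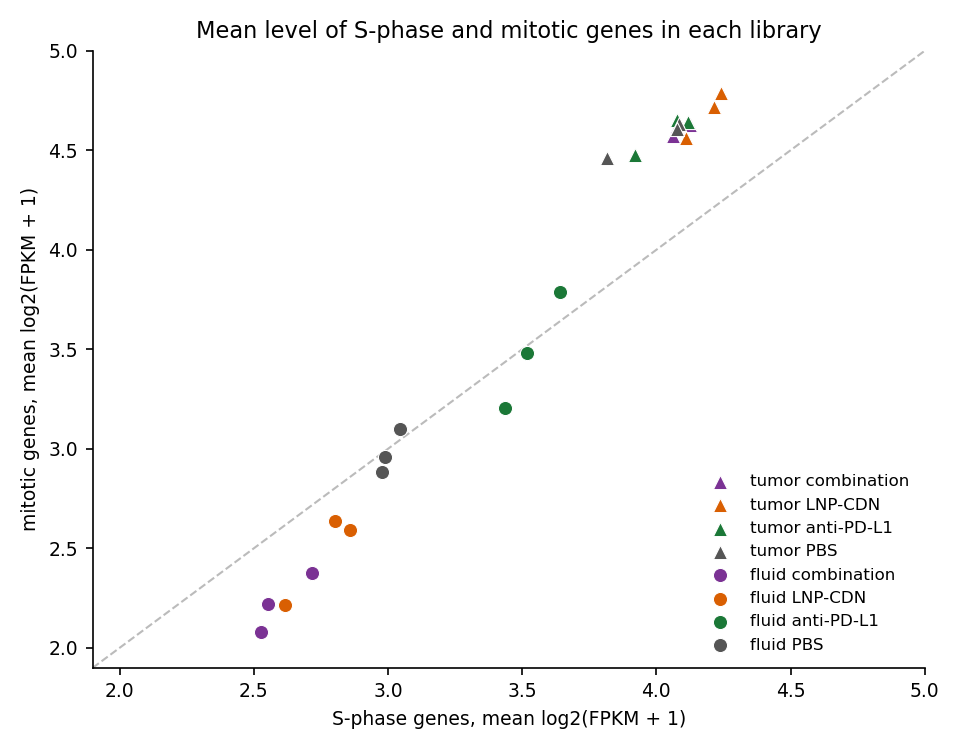
Mean log2(FPKM + 1) of the 23 S-phase genes (x axis) against that of the 26 mitotic genes (y axis) in each of the 24 libraries, with tumors as triangles, fluid as circles and a dashed line of equal means. The 12 tumor libraries sit together above the line, and the fluid libraries run along and below it, with anti-PD-L1 highest and the combination and LNP-CDN lowest.

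Within a tissue the members kept a wide range. By median over the 12 fluid libraries, Pcna, the sliding clamp of DNA polymerases, was highest at 62.0 FPKM, and Ttk, a spindle checkpoint kinase, was lowest at 1.19 FPKM. In tumors Pcna at 87.5 FPKM and Top2a at 80.6 FPKM were highest, and E2f2, an activating E2F factor, was lowest at 3.32 FPKM.

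In fluid, most of the 49 genes were lower under the combination than under PBS, among them the B cyclins, most spindle and kinetochore genes and the MCM helicase genes. Of the 49, 36 fell and 1, E2f1, rose, where 14.4% of all genes tested fell and 15.6% rose. The 36 were 23 of 26 mitotic genes and 13 of 23 S-phase genes. The median change was -0.75 over the mitotic genes and -0.45 over the S-phase genes, beside 0.00 over all genes tested. In 43 members every combination library was below every PBS library, which held for 26.7% of all genes, and in 1 member every combination library was above, which held for 27.5%.

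The regulators of mitotic entry fell. Cdk1 was at 3.44, 2.30 and 3.95 FPKM under the combination and at 5.97, 5.74 and 6.71 FPKM under PBS. Ccnb1, the main B cyclin, was at 3.53, 2.61 and 4.30 FPKM under the combination and at 7.41, 6.99 and 7.98 FPKM under PBS. Ccnb2 was at 6.17, 5.94 and 6.78 FPKM under the combination and at 17.0, 15.5 and 19.5 FPKM under PBS. In all 3 genes every combination library was below every PBS library. Cdk1 changed by -0.77 ± 0.17 (SE, adjusted p = 0.00622). Ccnb1 changed by -0.93 ± 0.19 (SE, adjusted p = 0.00455) and Ccnb2 by -1.32 ± 0.16 (SE, adjusted p = 0.00036). Plk1, a kinase of mitotic entry and exit, was at 4.80, 3.80 and 5.46 FPKM under the combination and at 8.34, 8.20 and 9.63 FPKM under PBS, a change of -0.78 ± 0.17 (SE, adjusted p = 0.00643).

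Genes of chromosome structure and separation were among the others that fell. Ube2c, the ubiquitin-conjugating enzyme of the anaphase-promoting complex, was at 2.82, 2.44 and 3.85 FPKM under the combination and at 8.17, 7.72 and 9.30 FPKM under PBS, a change of -1.23 ± 0.19 (SE, adjusted p = 0.000931). Cenpa, the histone variant that marks centromeres, had the smallest p of all members, at 3.11, 2.73 and 3.18 FPKM under the combination and 6.32, 6.00 and 7.80 FPKM under PBS, a change of -0.94 ± 0.10 (SE, adjusted p = 0.000186). Neither gene had a combination library within the PBS range. Nusap1, a microtubule-binding spindle protein, changed by -0.80 ± 0.12 (SE, adjusted p = 0.00092). Kif23, a kinesin of the cytokinesis midzone, changed by -0.97 ± 0.17 (SE, adjusted p = 0.00182), and Aurkb, the kinase of the chromosomal passenger complex, by -0.97 ± 0.18 (SE, adjusted p = 0.0024). Mki67, the chromosome-coating protein used to score proliferation, was at 10.4, 9.64 and 10.8 FPKM under the combination and at 17.6, 16.8 and 19.3 FPKM under PBS, a change of -0.75 ± 0.19 (SE, adjusted p = 0.0131). Top2a was at 10.5, 9.39 and 12.6 FPKM under the combination and at 17.0, 17.3 and 19.4 FPKM under PBS, a change of -0.68 ± 0.21 (SE, adjusted p = 0.0338). The Top2a groups did not overlap, yet its call was lost when any of the 3 PBS libraries or combination replicate 1 or 2 was left out. The 3 mitotic genes that did not pass, named here after their values were seen, were Cdc20, the activator of the anaphase-promoting complex, at -0.61, Cenpf, a kinetochore protein, at -0.40 and Mybl2, a transcription factor of late cell cycle genes, at -0.33.

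Among the S-phase genes, helicase and ribonucleotide reductase genes fell, and 9 members, with the licensing factors Cdc6, Cdt1 and Orc1 among them, did not pass. Mcm5 was at 9.47, 8.28 and 10.8 FPKM under the combination and at 16.8, 17.2 and 17.0 FPKM under PBS, with no overlap and a change of -0.78 ± 0.13 (SE, adjusted p = 0.00162). Mcm3, Mcm7 and Mcm4, of the same ring, changed by -0.63 ± 0.10, -0.61 ± 0.13 and -0.42 ± 0.09, with adjusted p of 0.00152, 0.00475 and 0.00499. Rrm1, the large subunit of ribonucleotide reductase, which makes deoxyribonucleotides, changed by -0.69 ± 0.11 (SE, adjusted p = 0.00114). Its small subunit Rrm2 was at 9.48, 8.54 and 13.0 FPKM under the combination and at 20.3, 18.1 and 23.3 FPKM under PBS. Rrm2 changed by -0.94 ± 0.24 (SE, adjusted p = 0.0152), and its call was lost without PBS replicate 3, combination replicate 1 or combination replicate 2. Pcna did not pass, at 57.6, 56.3 and 57.4 FPKM under the combination and 62.0, 63.5 and 65.0 FPKM under PBS without overlap, a difference of -0.15 ± 0.08 (SE, adjusted p = 0.191). Ccne1, cyclin E, was at 2.94, 2.60 and 3.06 FPKM under the combination and at 3.71, 4.08 and 3.27 FPKM under PBS, a difference of -0.27 ± 0.10 (SE, adjusted p = 0.0641). Cdt1 and Orc1 differed by -0.02 and 0.02; these and Cdc6 are named after their values were seen.

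The 2 activating E2F genes moved in opposite directions. E2f1 was at 7.84, 8.29 and 8.41 FPKM under the combination and at 6.69, 6.69 and 6.97 FPKM under PBS, a change of 0.24 ± 0.07 (SE, adjusted p = 0.0235). Every combination library was above every PBS library. That call was lost without PBS replicate 1, PBS replicate 2, combination replicate 2 or combination replicate 3, and with scaling to total reads. E2f2 was at 4.02, 3.35 and 3.11 FPKM under the combination and at 5.55, 5.65 and 6.58 FPKM under PBS, again with no overlap, and changed by -0.63 ± 0.10 (SE, adjusted p = 0.00119). With 1 library left out, the count of members called for the combination lay between 27 and 35.

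**Figure D2:**
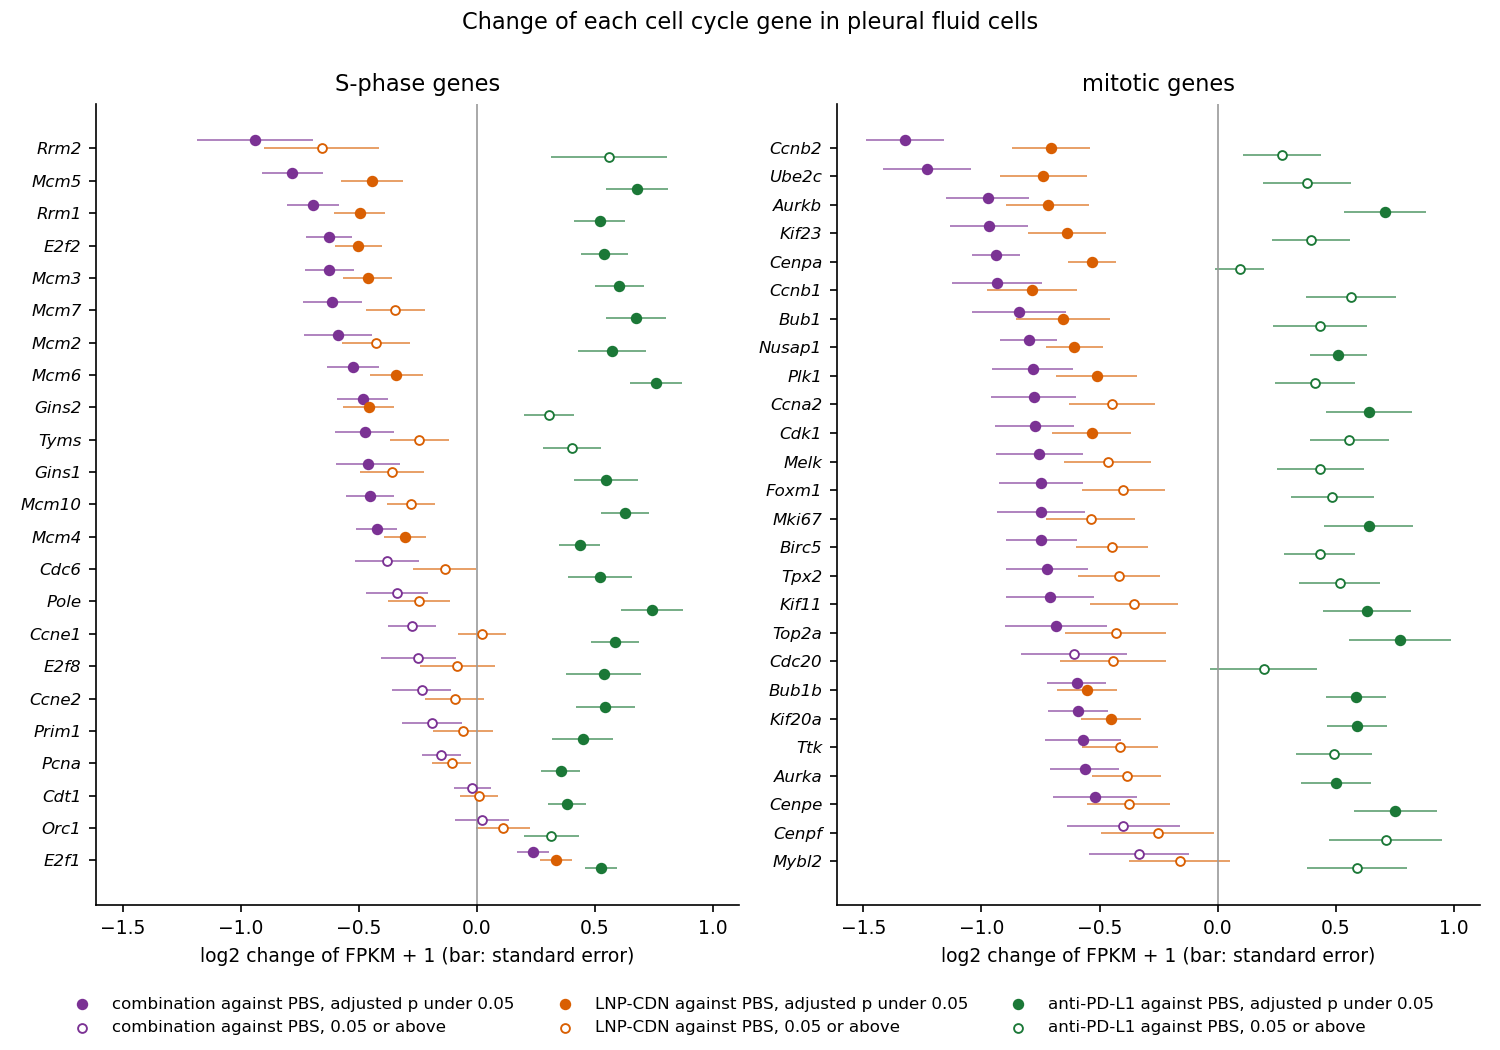
Log2 change against PBS in fluid, with its SE, for each member under the combination, LNP-CDN and anti-PD-L1, with S-phase genes on the left and mitotic genes on the right; filled points passed the adjusted p threshold of 0.05. Nearly all combination and LNP-CDN points lie left of 0, all anti-PD-L1 points lie right of 0, and E2f1 is right of 0 under all 3 treatments.

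Under LNP-CDN alone, 45 of the 49 genes were lower in fluid than under PBS by their fitted value, and fewer than under the combination passed. Relative to PBS, 19 members fell and 1, E2f1, rose, where 12.3% of all genes fell and 13.7% rose. The 19 were 12 mitotic and 7 S-phase genes, the median change over the 49 was -0.43 beside 0.00 over all genes, and 33 members had an unadjusted p under 0.05. In 35 members every LNP-CDN library was below every PBS library, which held for 21.8% of all genes, and in 1 above, which held for 23.9%. The count dropped to 11 without PBS replicate 1 or PBS replicate 3 and to 12 without LNP-CDN replicate 2. All comparisons with PBS in fluid share the same 3 PBS libraries.

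LNP-CDN replicate 2 was the lowest of its group in 25 of the 26 mitotic genes. Ccnb1 was at 4.35, 3.03 and 4.46 FPKM under LNP-CDN and at 7.41, 6.99 and 7.98 FPKM under PBS, a change of -0.79 ± 0.19 (SE, adjusted p = 0.0126). Ccnb2 was at 11.7, 7.73 and 11.7 FPKM under LNP-CDN and at 17.0, 15.5 and 19.5 FPKM under PBS, a change of -0.70 ± 0.16 (SE, adjusted p = 0.0106). Both genes were lowest in LNP-CDN replicate 2, and neither group overlapped the other. Cdk1, at 4.54, 3.09 and 4.28 FPKM, was also lowest there and changed by -0.53 ± 0.17 (SE, adjusted p = 0.0387). Plk1, at 6.23, 4.15 and 7.48 FPKM, changed by -0.51 ± 0.17 (SE, adjusted p = 0.0485). The Cdk1 call was lost without any 1 of the 3 PBS libraries or LNP-CDN replicate 2 or 3, and that of Plk1 without any PBS library or LNP-CDN replicate 1 or 2.

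Of the other mitotic genes under LNP-CDN, Cenpa changed by -0.53 ± 0.10 (SE, adjusted p = 0.00425) and Nusap1 by -0.61 ± 0.12 (SE, adjusted p = 0.00491). Bub1b, the checkpoint kinase homolog BubR1, changed by -0.55 ± 0.13 (SE, adjusted p = 0.00943). Aurkb changed by -0.72 ± 0.18 (SE, adjusted p = 0.013), a call lost without PBS replicate 1. Mki67, at 12.6, 9.48 and 14.4 FPKM under LNP-CDN, differed from PBS by -0.54 ± 0.19 (SE, adjusted p = 0.0582). Top2a, at 14.7, 9.62 and 15.6 FPKM under LNP-CDN, differed from PBS by -0.43 ± 0.21 (SE, adjusted p = 0.165). In both genes all 3 LNP-CDN libraries were below the PBS libraries.

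Under LNP-CDN 7 S-phase genes fell, among them Mcm3, Mcm4, Mcm5 and Mcm6 of the helicase, Gins2 of the GINS complex and Rrm1 of the reductase. Mcm2 and Mcm7 of the helicase, at -0.43 and -0.34, and Gins1, at -0.36, did not pass and are named after their values were seen. Mcm5 was at 13.9, 9.93 and 13.2 FPKM under LNP-CDN and at 16.8, 17.2 and 17.0 FPKM under PBS, a change of -0.44 ± 0.13 (SE, adjusted p = 0.0294). Its call was lost without any PBS library or LNP-CDN replicate 2. Mcm3 changed by -0.46 ± 0.10 (SE, adjusted p = 0.00868), Rrm1 by -0.50 ± 0.11 (SE, adjusted p = 0.00795), and Gins2 by -0.46 ± 0.11 (SE, adjusted p = 0.0107). Mcm4 changed by -0.31 ± 0.09 (SE, adjusted p = 0.0273), a call lost without any PBS library or LNP-CDN replicate 2 or 3. Rrm2, at 14.6, 9.24 and 14.8 FPKM, differed by -0.66 ± 0.24 (SE, adjusted p = 0.0719). Pcna, at 56.0, 58.7 and 62.1 FPKM, differed by -0.11 ± 0.08 (SE, adjusted p = 0.371), and Ccne1, at 3.63, 3.51 and 4.12 FPKM, by 0.02 ± 0.10 (SE, adjusted p = 0.9). E2f2, at 3.67, 4.19 and 3.80 FPKM, changed by -0.50 ± 0.10 (SE, adjusted p = 0.00479), and E2f1, at 9.50, 7.95 and 9.05 FPKM, by 0.33 ± 0.07 (SE, adjusted p = 0.00559).

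Anti-PD-L1 alone stood above PBS in fluid for every member by its fitted value, with helicase and E2F genes among those that rose. Of the 49, 29 rose and none fell, where 5.47% of all genes rose and 7.49% fell. The 29 were 19 of 23 S-phase genes and 10 of 26 mitotic genes. The median change was 0.54 over the S-phase genes and 0.51 over the mitotic genes, beside 0.03 over all genes, and 44 members had an unadjusted p under 0.05. In 42 members every anti-PD-L1 library was above every PBS library, which held for 17.4% of all genes, and in none below, which held for 16.1%. The count fell to 11, 15 and 17 without PBS replicate 1, 2 and 3, to 16 and 19 without anti-PD-L1 replicate 2 and 3, and grew to 36 without anti-PD-L1 replicate 1.

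The genes of smallest p were of replication and its control. Mcm6 was at 36.5, 34.3 and 41.3 FPKM under anti-PD-L1 and at 20.9, 21.6 and 22.2 FPKM under PBS, a change of 0.76 ± 0.11 (SE, adjusted p = 0.00305). Mcm5 was at 25.1, 26.8 and 31.9 FPKM under anti-PD-L1 and at 16.8, 17.2 and 17.0 FPKM under PBS, a change of 0.68 ± 0.13 (SE, adjusted p = 0.00932). Mcm10, a replication initiation factor that is no part of the ring, was at 3.61, 3.78 and 4.41 FPKM under anti-PD-L1 and at 2.20, 2.15 and 2.21 FPKM under PBS, a change of 0.63 ± 0.10 (SE, adjusted p = 0.00484). None of the 3 genes had overlapping groups. Mcm3 changed by 0.60 ± 0.10 (SE, adjusted p = 0.00585) and Pole, the catalytic subunit of the leading-strand polymerase, by 0.74 ± 0.13 (SE, adjusted p = 0.00664). E2f1, at 10.0, 10.6 and 10.0 FPKM under anti-PD-L1 and 6.69, 6.69 and 6.97 FPKM under PBS, had the smallest p of all members, with a change of 0.53 ± 0.07 (SE, adjusted p = 0.00161). E2f2, at 8.26, 9.96 and 9.00 FPKM, changed by 0.54 ± 0.10 (SE, adjusted p = 0.00755) and is named beside E2f1 although it is not among the members of smallest p. Ccne1, at 5.27, 6.79 and 6.03 FPKM, changed by 0.58 ± 0.10 (SE, adjusted p = 0.00634).

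Pcna and Rrm2 were less secure. Pcna was at 91.5, 82.1 and 72.1 FPKM and changed by 0.36 ± 0.08 (SE, adjusted p = 0.0197), a call lost without any PBS library or anti-PD-L1 replicate 2. Rrm2 was at 20.9, 34.9 and 39.3 FPKM under anti-PD-L1 and at 20.3, 18.1 and 23.3 FPKM under PBS, with replicate 1 inside the PBS range, and differed by 0.56 ± 0.24 (SE, adjusted p = 0.153).

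Mitotic genes under anti-PD-L1 were spread between the libraries, with replicate 3 highest in 25 of 26 and replicate 1 lowest in 23 of 26. Mki67 was at 21.7, 27.0 and 39.1 FPKM under anti-PD-L1 and at 17.6, 16.8 and 19.3 FPKM under PBS, a change of 0.64 ± 0.19 (SE, adjusted p = 0.0489). Top2a was at 24.3, 28.7 and 43.7 FPKM under anti-PD-L1 and at 17.0, 17.3 and 19.4 FPKM under PBS, a change of 0.77 ± 0.21 (SE, adjusted p = 0.0402). Both calls were lost without any PBS library or anti-PD-L1 replicate 2 or 3. Cdk1 was at 7.97, 9.76 and 11.0 FPKM under anti-PD-L1 and at 5.97, 5.74 and 6.71 FPKM under PBS, a difference of 0.56 ± 0.17 (SE, adjusted p = 0.0523). Ccnb1, at 8.76, 11.6 and 14.9 FPKM, differed by 0.56 ± 0.19 (SE, adjusted p = 0.0756) and Plk1, at 10.8, 11.9 and 13.2 FPKM, by 0.41 ± 0.17 (SE, adjusted p = 0.135). Ccnb2, at 16.9, 22.4 and 24.5 FPKM under anti-PD-L1 and 17.0, 15.5 and 19.5 FPKM under PBS, overlapped and differed by 0.27 ± 0.16 (SE, adjusted p = 0.298). Bub1b changed by 0.59 ± 0.13 (SE, adjusted p = 0.0142) and kept its call whichever library was left out. Kif20a, a kinesin of late mitosis, changed by 0.59 ± 0.13 (SE, adjusted p = 0.0147), a call lost without PBS replicate 1. Cenpe, a kinetochore motor, changed by 0.75 ± 0.18, Nusap1 by 0.51 ± 0.12 and Aurkb by 0.71 ± 0.18, with adjusted p of 0.0205, 0.021 and 0.0257. The Cenpe call was lost without any PBS library, the Nusap1 call without PBS replicate 1 or 2 or anti-PD-L1 replicate 2 or 3, and the Aurkb call without any PBS library or anti-PD-L1 replicate 1 or 2.

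**Figure D3:**
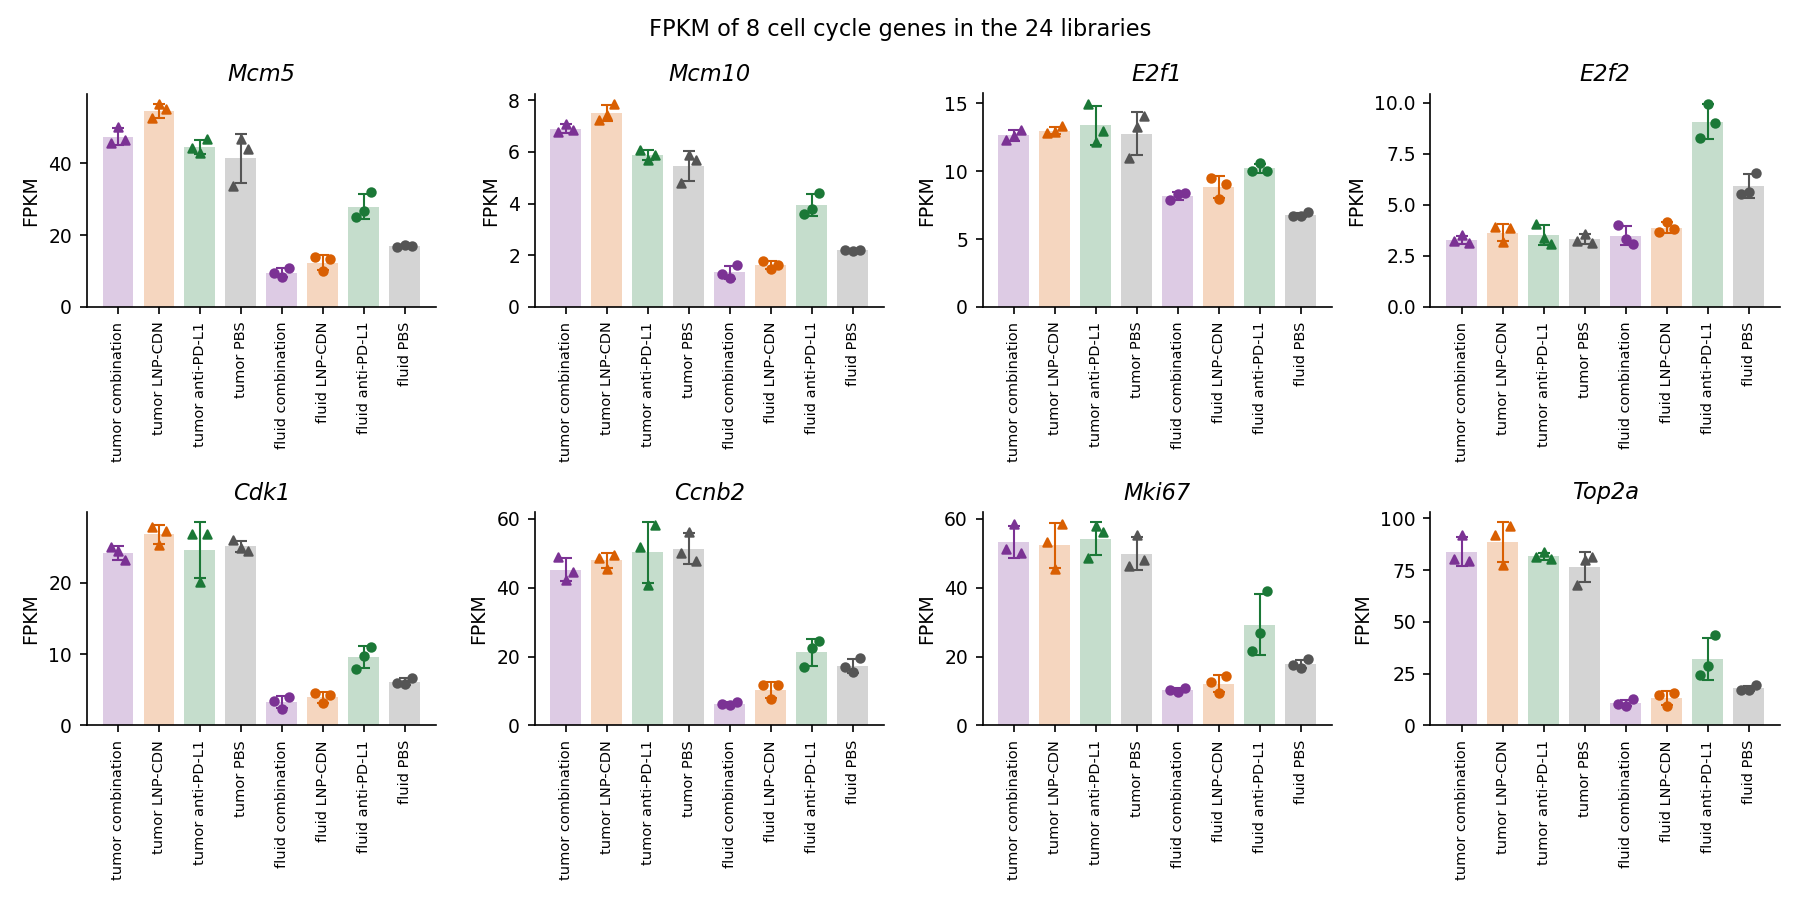
FPKM of 4 S-phase genes (Mcm5, Mcm10, E2f1, E2f2) and 4 mitotic genes (Cdk1, Ccnb2, Mki67, Top2a) in the 8 groups, on linear axes from 0; bars are means, error bars SD and points the 3 libraries. Tumor bars are the higher in every panel but that of E2f2, and fluid bars are highest under anti-PD-L1 in all 8 panels.

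Markers of several cell types also differed between the fluid groups, not all of them in the direction of the members. The 5 epithelial and carcinoma genes summed to 29.5 to 41.3 FPKM under the combination, 36.2 to 53.3 under LNP-CDN, 45.2 to 79.2 under anti-PD-L1 and 37.2 to 43.9 under PBS, and anti-PD-L1 replicate 3 was the library at 79.2. The 5 neutrophil genes summed to 694 to 1637 FPKM under the combination, 775 to 2657 under LNP-CDN, 611 to 1058 under anti-PD-L1 and 3187 to 5054 under PBS. The 4 B cell genes summed to 4.55 to 28.3 FPKM under the combination, 3.33 to 6.08 under LNP-CDN, 6.55 to 8.45 under anti-PD-L1 and 37.8 to 77.9 under PBS. Of 5 erythroid genes listed only Alas2, the heme synthesis enzyme of red cell precursors, was analysed here. Alas2 was at 0.0749 to 0.551 FPKM under the combination, 0.289 to 0.949 under LNP-CDN, 16.9 to 42.6 under anti-PD-L1 and 19.5 to 59.4 under PBS. The 5 fibroblast genes summed to 44.0 to 55.7 FPKM under the combination, 67.8 to 70.6 under LNP-CDN, 72.7 to 122 under anti-PD-L1 and 67.9 to 88.2 under PBS. The 6 T cell genes summed to 8.04 to 10.2 FPKM under the combination, 3.50 to 9.86 under LNP-CDN, 4.13 to 17.2 under anti-PD-L1 and 14.8 to 16.3 under PBS. Of 4 endothelial genes listed 2 were analysed here, and they summed to 3.03 to 4.20 FPKM under the combination, 2.99 to 5.07 under LNP-CDN, 0.412 to 0.495 under anti-PD-L1 and 0.466 to 0.686 under PBS. The 5 leukocyte genes summed to 1066 to 1117 FPKM under the combination and to 927 to 1224 under LNP-CDN. Their sum was 618 to 883 FPKM under anti-PD-L1 and 923 to 1032 under PBS. The sums of 6 macrophage genes and of 4 mesothelial genes overlapped between each treatment and PBS. The part of these cells, and of mouse sex under anti-PD-L1, in the member changes was not tested.

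**Figure D4:**
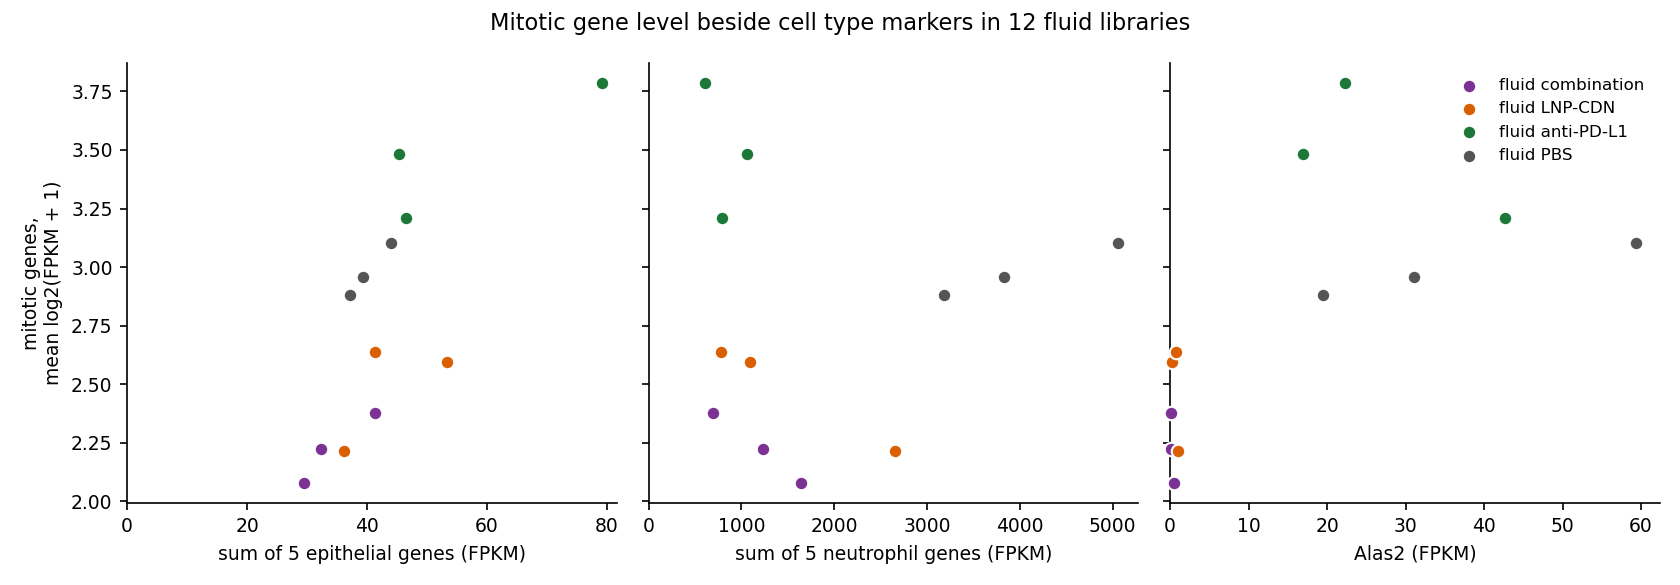
Mean log2(FPKM + 1) of the mitotic genes in each of the 12 fluid libraries (y axis) against the summed FPKM of 5 epithelial genes (left), the summed FPKM of 5 neutrophil genes (middle) and the FPKM of Alas2 (right). The library at 79.2 FPKM of the epithelial genes is the highest in mitotic level, the PBS libraries stand apart on neutrophil genes, and all 6 libraries given LNP-CDN, alone or in combination, lie at the low end of Alas2.

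Set against each agent alone, the combination in fluid was lower than anti-PD-L1 in nearly every member, and no member passed against LNP-CDN. Relative to anti-PD-L1, 48 of 49 members fell and none rose, where 18.9% of all genes fell and 18.4% rose. The median change was -1.26 over the mitotic genes and -0.90 over the S-phase genes, and in all 49 members every combination library was below every anti-PD-L1 library, which held for 24.1% of all genes. The member that did not pass was Orc1, a subunit of the origin recognition complex, at -0.29 ± 0.11. The count was 47 or 48 whichever library was left out. In fluid only the libraries given anti-PD-L1 alone carried more than a trace of Y-linked RNA. Mouse sex and treatment thus cannot be told apart in this comparison.

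Mcm3 had the smallest p among the S-phase genes, with a change of -1.23 ± 0.10 (SE, adjusted p = 3.91e-05). Mcm5 changed by -1.46 ± 0.13 (SE, adjusted p = 5.09e-05), Mcm6 by -1.28 ± 0.11 (SE, adjusted p = 4.43e-05) and Rrm2 by -1.50 ± 0.24 (SE, adjusted p = 0.00112). Among the mitotic genes, Nusap1 changed by -1.31 ± 0.12 (SE, adjusted p = 5.71e-05), Aurkb by -1.68 ± 0.18 (SE, adjusted p = 0.000105) and Ccnb2 by -1.60 ± 0.16 (SE, adjusted p = 0.000101). Cdk1 changed by -1.33 ± 0.17 (SE, adjusted p = 0.000287), Mki67 by -1.39 ± 0.19 (SE, adjusted p = 0.000416) and Top2a by -1.46 ± 0.21 (SE, adjusted p = 0.000666). E2f2, at 4.02, 3.35 and 3.11 FPKM under the combination and 8.26, 9.96 and 9.00 FPKM under anti-PD-L1, changed by -1.17 ± 0.10 (SE, adjusted p = 3.93e-05). E2f1 was the smallest of the changes that passed, at -0.29 ± 0.07 (SE, adjusted p = 0.0078).

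Relative to LNP-CDN, limma called no member and 0.00% of all genes, and 5 members had an unadjusted p under 0.05. Limma-voom on the recovered reads also called 0. All 49 differences were negative, with a median of -0.25 over the mitotic genes and -0.16 over the S-phase genes. In 7 members every combination library was below every LNP-CDN library, which held for 6.47% of all genes, and in none was every one above, which held for 6.11%. Cenpa had the smallest p, at 3.11, 2.73 and 3.18 FPKM under the combination and 4.47, 3.88 and 4.59 FPKM under LNP-CDN, a difference of -0.41 ± 0.10 (SE, adjusted p = 0.613). Ccnb2 differed by -0.62 ± 0.16 (SE, adjusted p = 0.648), Ccne1 by -0.30 ± 0.10 (SE, adjusted p = 0.833) and Mcm5 by -0.34 ± 0.13 (SE, adjusted p = 0.859).

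Whether the agents added up was tested as the effect of adding anti-PD-L1 to LNP-CDN minus its effect alone. All 49 values in fluid were negative, with a median of -0.73, and 11 passed, all of them S-phase genes, where 0.762% of all genes passed in that direction and 1.70% in the other. E2f1 had a value of -0.62 ± 0.10 (SE, adjusted p = 0.019), Ccne1 of -0.88 ± 0.14 (SE, adjusted p = 0.0227), Mcm6 of -0.94 ± 0.16 (SE, adjusted p = 0.0229), Mcm10 of -0.80 ± 0.14 (SE, adjusted p = 0.0267) and Mcm5 of -1.01 ± 0.18 (SE, adjusted p = 0.0274). Of the mitotic genes Nusap1 had the smallest p, at -0.70 ± 0.17 (SE, adjusted p = 0.059), and the median was -0.75 over the mitotic and -0.70 over the S-phase genes. Because only the fluid libraries given anti-PD-L1 alone carried more than a trace of Y-linked RNA, mouse sex enters these values. Sex and a lack of additivity cannot be told apart in fluid. The count rests on single libraries. It was 0 without PBS replicate 1, PBS replicate 3 or LNP-CDN replicate 1, and 1 without combination replicate 2. It was 3 without PBS replicate 2, LNP-CDN replicate 3, anti-PD-L1 replicate 2 or combination replicate 1, and 7 without combination replicate 3. It was 20 without anti-PD-L1 replicate 1 and 32 without LNP-CDN replicate 2. In tumors none passed, with 2 at an unadjusted p under 0.05, 0.00% of all genes called and 0 called by limma-voom.

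In tumors 1 member passed under 1 treatment, Mcm10 under LNP-CDN. Relative to PBS, no member passed under the combination, where 0.881% of all genes rose and 0.304% fell, and 1 member had an unadjusted p under 0.05. The median change was 0.08, and limma-voom called 1 member. Every combination library was above every PBS library in 4 members, against 11.3% of all genes, and below in none, against 9.91%. Under anti-PD-L1 no member and 0.00% of all genes passed, with 2 members at an unadjusted p under 0.05, a median of 0.03 and 0 called by limma-voom. Every anti-PD-L1 library was above every PBS library in 1 member and below in 1, against 3.91% and 4.84% of all genes. Under LNP-CDN 1 member, Mcm10, rose, where 1.89% of all genes rose and 1.47% fell. That 1 call is near the share of all genes. For LNP-CDN the median was 0.15, 44 of 49 values were positive and 12 had an unadjusted p under 0.05. No share over all genes stands beside these tallies, so they are not read as a result about the members. In 11 members, 9 of them S-phase genes, every LNP-CDN library was above every PBS library, which held for 13.3% of all genes.

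Mcm10 in tumors was at 6.76, 7.08 and 6.85 FPKM under the combination, 7.24, 7.42 and 7.86 under LNP-CDN, 6.07, 5.69 and 5.87 under anti-PD-L1 and 4.78, 5.86 and 5.66 under PBS. All libraries given LNP-CDN, alone or in combination, were above all the others. Among those others, all anti-PD-L1 libraries and PBS replicate 1 carried Y-linked RNA. The part of mouse sex in this order was not tested. The Mcm10 change was 0.41 ± 0.07 (SE, adjusted p = 0.0147) under LNP-CDN. That call was lost without LNP-CDN replicate 3 and in a fit of the 6 libraries compared alone. Under the combination the Mcm10 difference was 0.30 ± 0.07 (SE, adjusted p = 0.0617). Mcm5 in tumors was at 45.6, 49.995 and 46.4 FPKM under the combination, 52.5, 56.4 and 55.0 under LNP-CDN, 44.2, 42.8 and 46.7 under anti-PD-L1 and 33.7, 46.6 and 43.9 under PBS. Its difference from PBS was 0.40 ± 0.10 (SE, adjusted p = 0.0538) under LNP-CDN and 0.20 ± 0.10 (SE, adjusted p = 0.4) under the combination. PBS replicate 1, the PBS tumor library with Y-linked RNA, was the lowest tumor library in both genes and had the lowest S-phase average, at 3.82.

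The mitotic genes Cdk1, Mki67 and Top2a showed no such order in tumors. Cdk1 was at 24.96, 24.4 and 23.1 FPKM under the combination, 27.8, 25.3 and 27.2 under LNP-CDN, 26.8, 20.0 and 26.8 under anti-PD-L1 and 25.98, 24.8 and 24.4 under PBS. Mki67 was at 51.2, 58.6 and 50.2 FPKM under the combination, 53.2, 45.4 and 58.4 under LNP-CDN, 48.7, 57.8 and 56.2 under anti-PD-L1 and 46.4, 55.3 and 48.1 under PBS. Top2a was at 80.2, 91.8 and 79.3 FPKM under the combination, 91.7, 77.5 and 96.0 under LNP-CDN, 81.2, 83.5 and 80.1 under anti-PD-L1 and 67.9, 80.0 and 81.0 under PBS. Each treatment overlapped PBS in all 3 genes. Between treatments, every combination library was below every LNP-CDN library in Cdk1. Against PBS, Ccnb2 differed by -0.18 ± 0.11 (SE, adjusted p = 0.524) under the combination. Foxm1, the transcription factor of mitotic genes, differed from PBS by 0.22 ± 0.08 (SE, adjusted p = 0.141) under LNP-CDN. In Foxm1 every LNP-CDN library and every combination library was above every PBS library, which was seen in the data. No member passed for the combination in tumors relative to anti-PD-L1, with 2 at an unadjusted p under 0.05 and 1.16% of all genes higher and 0.387% lower. Relative to LNP-CDN none passed, with 0 at an unadjusted p under 0.05 and 0.00% of all genes called, and limma-voom called 0 members in both. Every combination library was below every LNP-CDN library in 10 members and above in none, against 9.22% and 8.40% of all genes. Every combination library was above every anti-PD-L1 library in 3 members and below in 2, against 13.2% and 11.5% of all genes. Tyms, thymidylate synthase, came nearest, at 0.32 ± 0.08 (SE, adjusted p = 0.0861) for the combination against anti-PD-L1. All anti-PD-L1 tumor libraries carried Y-linked RNA, so mouse sex enters that comparison, and its part was not tested.

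Between tissues, nearly every member was higher in tumors, and under PBS E2f2 was the exception. There 48 of 49 members were higher in tumor and 1 was lower, where 37.0% of all genes were higher and 37.9% lower. The median difference was 1.57 over the mitotic genes and 1.05 over the S-phase genes, beside -0.01 to -0.03 over all genes in the 4 treatments. Scaling to total reads moved the median over all genes to between 0.27 and 0.29, so the member differences are best read relative to that shift. Tumor RNA also carried the higher keratin sums and lower leukocyte sums given above, whose part was not tested. Under the combination 48 were higher and none lower, with 37.2% and 39.2% of all genes, and the median was 2.40 over the mitotic and 1.69 over the S-phase genes. Under LNP-CDN 48 were higher and none lower, with 37.5% and 38.8% of all genes, and the median over the 49 was 1.94. Under anti-PD-L1 43 were higher and 2 lower, with 34.6% and 36.1% of all genes, and the median was 1.11 over the mitotic and 0.66 over the S-phase genes. Every tumor library was above every fluid library in 48 members under the combination (39.4% of all genes), 48 under LNP-CDN (38.7%), 44 under anti-PD-L1 (34.8%) and 48 under PBS (37.2%). Every tumor library was below in 0 members under the combination (41.3% of all genes), 0 under LNP-CDN (39.6%), 1 under anti-PD-L1 (35.9%) and 1 under PBS (38.8%), E2f2 in both cases.

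Top2a was at 67.9, 80.0 and 81.0 FPKM in PBS tumors and at 17.0, 17.3 and 19.4 FPKM in PBS fluid, a difference of 2.03 ± 0.17 (SE, adjusted p = 2.55e-09). Cdk1 was at 25.98, 24.8 and 24.4 FPKM in PBS tumors and at 5.97, 5.74 and 6.71 FPKM in PBS fluid, a difference of 1.87 ± 0.14 (SE, adjusted p = 4.25e-10). Mcm6 had the smallest p under PBS, with a difference of 1.47 ± 0.09 (SE, adjusted p = 4.13e-11). Pcna differed by less, at 0.42 ± 0.10 (SE, adjusted p = 0.000931) under PBS, and E2f1 by 0.81 ± 0.08 (SE, adjusted p = 1.65e-08). E2f2 was at 3.22, 3.60 and 3.14 FPKM in PBS tumors and at 5.55, 5.65 and 6.58 FPKM in PBS fluid, a difference of -0.68 ± 0.10 (SE, adjusted p = 2.63e-06). Under anti-PD-L1 E2f2 was at 4.04, 3.40 and 3.08 FPKM in tumor and at 8.26, 9.96 and 9.00 FPKM in fluid, a difference of -1.16 ± 0.10 (SE, adjusted p = 2.14e-09). Under LNP-CDN and the combination the E2f2 values were -0.08 ± 0.10 and -0.06 ± 0.10, and neither passed; with total-read scaling they were 0.24 and 0.26, and both passed as higher in tumor. Ccne1 was also lower in tumor under anti-PD-L1, at -0.29 ± 0.11 (SE, adjusted p = 0.0296), a call lost without replicate 2 or 3 of the anti-PD-L1 libraries of fluid or of tumor. With total-read scaling that value was 0.04, and Pcna, at 0.00 ± 0.10 as deposited, was at 0.39.

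The effect of a treatment was then compared between the tissues, as the change against PBS in tumor minus that in fluid. For the combination 34 members were higher and none lower, where 7.86% of all genes were higher and 7.17% lower. They were 22 mitotic and 12 S-phase genes, and the median over the 49 was 0.70. Ccnb2 had a value of 1.15 ± 0.21 (SE, adjusted p = 0.00138), Cenpa of 0.90 ± 0.14 (SE, adjusted p = 0.000514), Mcm5 of 0.98 ± 0.17 (SE, adjusted p = 0.000943) and Mcm10 of 0.75 ± 0.11 (SE, adjusted p = 0.00032). The count lay between 28 and 34 with 1 library left out.

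For LNP-CDN 26 members were higher and none lower, where 7.86% of all genes were higher and 7.40% lower, and the median was 0.60. They were 15 mitotic and 11 S-phase genes. Mcm10 had a value of 0.68 ± 0.11 (SE, adjusted p = 0.000619), Mcm5 of 0.85 ± 0.17 (SE, adjusted p = 0.00275) and Bub1b of 0.73 ± 0.16 (SE, adjusted p = 0.00541). The count was 13 without fluid LNP-CDN replicate 2 or tumor LNP-CDN replicate 3, 14 without fluid PBS replicate 3 and 15 without tumor PBS replicate 1.

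For anti-PD-L1 12 members were lower and none higher, where 1.73% of all genes were lower and 3.58% higher, and the median was -0.49. They were 10 S-phase and 2 mitotic genes. Mcm6 had a value of -0.67 ± 0.13 (SE, adjusted p = 0.00544), Mcm10 of -0.53 ± 0.11 (SE, adjusted p = 0.0092) and E2f1 of -0.46 ± 0.11 (SE, adjusted p = 0.0204). The count was 2 without fluid PBS replicate 1, tumor PBS replicate 2 or tumor anti-PD-L1 replicate 2, and 4 without tumor PBS replicate 3 or tumor anti-PD-L1 replicate 3. It was 5 without fluid PBS replicate 2, 6 without fluid anti-PD-L1 replicate 3, and 7 without fluid anti-PD-L1 replicate 2 or tumor anti-PD-L1 replicate 1. It was 24 without fluid anti-PD-L1 replicate 1.

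**Figure D5:**
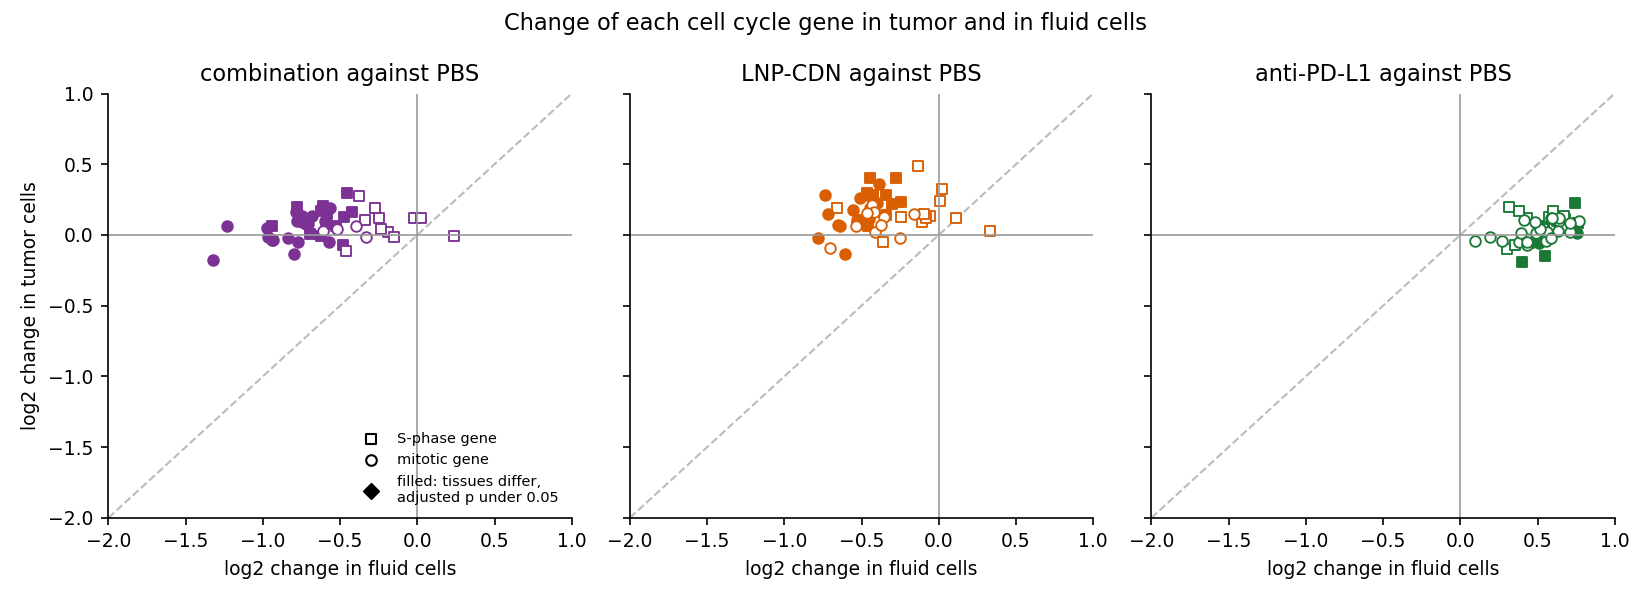
Log2 change against PBS in tumor (y axis) against that in fluid (x axis) for the 49 members under each treatment, with squares for S-phase and circles for mitotic genes; filled points are members whose change differed between the tissues (adjusted p under 0.05). Points spread along the fluid axis, to the left under the combination and LNP-CDN and to the right under anti-PD-L1, and lie closer to 0 on the tumor axis.

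Genes of the same pathways that are not among the 49 were counted from lists by function. The shares of all genes tested in fluid that these counts stand beside were 14.4% lower and 15.6% higher under the combination, 12.3% lower and 13.7% higher under LNP-CDN, and 7.49% lower and 5.47% higher under anti-PD-L1. Of 44 other mitotic genes tested in fluid, 33 fell and 1 rose under the combination, 16 fell and 1 rose under LNP-CDN, and 13 rose and none fell under anti-PD-L1. Lmnb1, lamin B1 of the nuclear envelope, fell by 1.50 on the log2 scale under the combination, and Cdc25b, the phosphatase that activates CDK1, changed by -0.72 ± 0.10 (SE, adjusted p = 0.000535). Incenp, the scaffold of the passenger complex, changed by 0.61 ± 0.09 (SE, adjusted p = 0.00227) under anti-PD-L1. Of 39 other replication genes, 11 fell and 2 rose under the combination, and 13 rose and none fell under anti-PD-L1. Under LNP-CDN 5 fell and 1 rose, a share of falls near that of all genes. Tk1, thymidine kinase, changed by -0.62 ± 0.10 (SE, adjusted p = 0.00135) under the combination, while Pold3, a subunit of DNA polymerase delta, changed by 0.54 ± 0.08 (SE, adjusted p = 0.00104).

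Of 21 G1 and restriction point genes in fluid, 5 rose and 4 fell under the combination, 4 rose and 2 fell under LNP-CDN, and 4 rose and none fell under anti-PD-L1. In so short a list the counts under the combination and LNP-CDN lie near the shares of all genes given above. Ccnd2, a D cyclin, changed by 0.72 ± 0.14 (SE, adjusted p = 0.00333) under the combination and by 0.65 ± 0.14 (SE, adjusted p = 0.00702) under LNP-CDN. Rb1, the retinoblastoma protein that restrains E2F, changed by 0.58 ± 0.09 (SE, adjusted p = 0.00104) under the combination. Its relative Rbl1 changed by 0.55 ± 0.06 (SE, adjusted p = 0.00109) under anti-PD-L1. Ccnd1 in fluid differed from PBS by -0.59 ± 0.24 (SE, adjusted p = 0.0869) under the combination, and Myc by -0.47 ± 0.32 (SE, adjusted p = 0.292).

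Of 17 CDK inhibitor and p53 target genes in fluid, 1 rose and 5 fell under the combination, 2 rose and 4 fell under LNP-CDN, and none rose and 4 fell under anti-PD-L1. The counts under the combination and LNP-CDN are again within a few genes of the shares of all genes. Cdkn1b, the CDK inhibitor p27, changed by -0.78 ± 0.14 (SE, adjusted p = 0.0023) under the combination, by -0.63 ± 0.14 (SE, adjusted p = 0.00799) under LNP-CDN and by -0.65 ± 0.14 (SE, adjusted p = 0.0142) under anti-PD-L1. Cdkn1a, the inhibitor p21, differed by -0.17 ± 0.20 (SE, adjusted p = 0.553) under the combination, 0.32 ± 0.20 (SE, adjusted p = 0.252) under LNP-CDN and -0.66 ± 0.20 (SE, adjusted p = 0.0504) under anti-PD-L1. In tumors under LNP-CDN, the lists gave 1 other replication gene and 2 G1 genes higher and none lower, where 1.89% of all genes were higher and 1.47% lower, among them Fen1, the flap endonuclease, at 0.43 ± 0.09 (SE, adjusted p = 0.0391).

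Likeness was measured as Pearson's r over the 24 libraries between a member and the mean of the other members of its set, a description in which tissue and treatment are shared by all points. Tpx2, a spindle assembly factor, was most like its set, at 0.998. Every member but E2f2 was at 0.802 or above, with Ccne1 at 0.802, E2f1 at 0.892 and Pcna at 0.899 the least alike of these. E2f2 stood at -0.238 over all libraries and at 0.924 over the 12 fluid libraries, and E2f1 at 0.491 over the fluid libraries. Over the 12 tumor libraries alone r ran from -0.054 for Nusap1 and -0.049 for Cenpf to 0.95 for Cdc6.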

How the data were processed

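Poly-A RNA of pleural fluid cells and pleural tumor cells was measured in 24 libraries, 3 in each of 8 groups, and the samples were grouped by the submitters' labels. The authors deposited 1 table of FPKM values per gene. As tools the submitters' processing notes list DESeq2, featureCounts, STAR and fastp, and as a build mm9, with no versions or roles. The gene coordinates in the table match GRCm38, however: 53474 of the 54383 gene IDs found in GENCODE M21 had identical positions there, 48 of the 49 members among them. Per the labels' protocols the library kit does not mark strand, so reads of overlapping genes on opposite strands cannot be told apart.

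Within a library the FPKM values times gene length were whole multiples of 1 read, within 0.01 read, for 99.92 to 99.97% of values, which gave the reads behind each value. Between libraries the factors followed median-of-ratios size factors, so the deposited FPKM are not scaled to total reads. The 21 genes with values that were not whole (9 in fluid, 19 in tumor, 0 members) were left out. Between replicates the chi-square of recovered reads was 4.90 to 95.7 for each degree of freedom, above sampling noise, and no library was treated as a copy of another.

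Changes were fitted on log2(FPKM + 1) of the deposited values with limma 3.58.1 in R 4.3.3, for genes that reached 1 FPKM in 3 or more libraries, over all 12 libraries of a tissue, or all 24 where tissues were compared. That gave 13518 genes in fluid, 13173 in tumor and 15222 over both. P-values were moderated, two-sided and adjusted by Benjamini-Hochberg over all genes tested, with a threshold of 0.05. They set each difference against the spread between libraries of the same group, taken over all libraries in the fit and moderated across genes. With 3 against 3 libraries an exact permutation test of a single gene cannot go below 0.1, so none was used. The fit was also run on simulated reads, drawn for each gene independently. That run cannot show how calls behave for genes that vary together, and nothing here rests on it. Tables and figures used Python 3.11.15, pandas 2.3.3, numpy 2.4.6 and matplotlib 3.10.9.

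The members, marker lists and pathway lists were chosen with earlier results of these data known. Named in every comparison could be Mcm5, Pcna, Rrm2, E2f1, Ccne1, Cdk1, Ccnb1, Ccnb2, Mki67, Top2a and Plk1, the 6 S-phase and 6 mitotic genes of smallest p, the pathway genes Cdkn1a, Ccnd1, Ccnd2 and Myc, and up to 4 genes of smallest p of each other list. E2f2 is described in several further comparisons, not all, because it differed from the other members, which was seen in the data. The alternatives were a pseudocount of 0.1, no filter on low values, scaling to total reads, limma-voom on the recovered reads, a fit of only the libraries compared, the replicate number as a block, and each library left out.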

Additional observations from a re-analysis of the deposited data

Results flagged for a closer look

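The members below had a treatment effect that differed between the tissues, by limma's test of the change against PBS in tumor minus that in fluid. Under the combination this held for 34 members and under LNP-CDN for 26, all with the tumor value higher. Under anti-PD-L1 it held for 12, all with the tumor value lower. The libraries that move these counts are given with the comparison of the tissues.

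Under the combination, the difference on the log2 scale was 1.30 for Ube2c, 1.15 for Ccnb2, 1.02 for Aurkb, 0.95 for Kif23, 0.94 for Plk1, 0.90 for Cenpa and 0.90 for Ccnb1. It was 0.88 for Birc5, the passenger protein survivin, 0.84 for Mki67, 0.82 for Top2a and 0.72 for Cdk1. Among the S-phase genes it was 1.00 for Rrm2, 0.98 for Mcm5, 0.82 for Mcm7, 0.75 for Mcm10, 0.70 for Rrm1, 0.62 for E2f2 and 0.59 for Mcm6.

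Under LNP-CDN, the difference was 1.02 for Ube2c, 0.87 for Aurkb, 0.77 for Plk1, 0.76 for Ccnb1, 0.73 for Bub1b, 0.72 for Birc5, 0.70 for Kif23, 0.64 for Cenpa and 0.62 for Cdk1. Among the S-phase genes it was 0.85 for Mcm5, 0.76 for Mcm3, 0.71 for Mcm2, 0.68 for Mcm10, 0.60 for Rrm1 and 0.60 for E2f2.

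Under anti-PD-L1, the difference was -0.74 for Cenpe and -0.56 for Nusap1 among the mitotic genes. Among the S-phase genes it was -0.67 for Mcm6, -0.59 for Tyms, -0.59 for Ccne1, -0.59 for Ccne2, the second cyclin E, -0.53 for Mcm10, -0.50 for Rrm1 and -0.46 for E2f1. The fluid anti-PD-L1 libraries carried Y-linked RNA and those of the other fluid groups nearly none, so sex and treatment cannot be told apart in these values.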

How the results depend on the processing

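Most counts of called members kept within 1.5 times their value under every planned setting other than leaving out a library. Without the filter on low values the count was 18 for fluid anti-PD-L1 against PBS, 4 for the anti-PD-L1 effect between tissues and 3 for non-additivity in fluid. With scaling to total reads it was 2 for tumor LNP-CDN against PBS, 1 for tumor combination against PBS, 4 for the anti-PD-L1 effect between tissues and 7 for non-additivity in fluid. Limma-voom on recovered reads gave 2 for tumor LNP-CDN and 1 for the tumor combination, each against PBS. A fit of only the libraries compared gave 19 for fluid anti-PD-L1 and 0 for tumor LNP-CDN, and a pseudocount of 0.1 gave 6 for the anti-PD-L1 effect between tissues. The cause was not tested.

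Leaving out each library in turn gave, in fluid against PBS, 27 to 35 members for the combination, 11 to 20 for LNP-CDN and 11 to 36 for anti-PD-L1, and 0 to 1 for tumor LNP-CDN against PBS. It gave 28 to 34 for the combination effect between tissues, 13 to 28 for the LNP-CDN effect, 2 to 24 for the anti-PD-L1 effect and 0 to 32 for non-additivity in fluid. With total-read scaling, 4 named values of tumor against fluid changed sign where they were called under either scaling. Under anti-PD-L1 Pcna, not called in the deposited scaling, had a log2 difference of 0.39, and Ccne1, called there as lower, had one of 0.041. E2f2, not called in the deposited scaling, was at 0.26 under the combination and at 0.24 under LNP-CDN.

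Same-numbered libraries were not paired by the labels, and their deviations correlated from -0.244 to 0.213 in fluid (4 of 18 pairs over 0.1), from -0.204 to 0.125 in tumor (2 of 18) and from -0.042 to 0.231 between tissues (3 of 12). With the replicate number as a block, the counts against PBS in fluid were 37 for the combination, 27 for LNP-CDN and 34 for anti-PD-L1. The block gave 48 for the combination against anti-PD-L1 and 0 against LNP-CDN in fluid, and 1 for LNP-CDN and 0 for the other comparisons in tumor. Between tissues it gave 48 under the combination, 48 under LNP-CDN, 43 under anti-PD-L1 and 49 under PBS. For the effects between tissues it gave 34, 33 and 15 for the combination, LNP-CDN and anti-PD-L1, and for non-additivity 13 in fluid and 0 in tumor. With 3 libraries a group, differences smaller than the spread between libraries were not detectable.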
